A study of Rattus norvegicus with 9 samples.

Results

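Osteocytes are former osteoblasts that became buried in the bone matrix, and the genes described here are those by which they are usually recognized and by which they act on mineral. The 8 genes were taken as a list of symbols: Sost, Dmp1, Mepe, Phex, Fgf23, Pdpn, Enpp1 and Ankh. All 8 were among the 22589 genes listed for rat tibia, and 7 of them were among the 14520 genes with enough reads to be tested, the exception being Fgf23.

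The tibias came from female Sprague-Dawley rats bought at 9 weeks of age and fed the same diet. In the Sham group only some fat beside the ovary was cut away, and in both other groups the ovaries of both sides were removed. The NE/Ovx group then rested, while the RE/Ovx group, after a period of adaptation, climbed a ladder for 12 weeks with a tail load that was raised to 100% of body weight. All bones were taken 24 weeks after the operation, with 3 rats in each group, called here Sham rats 12, 7 and 8, NE/Ovx rats 6, 8 and 9 and RE/Ovx rats 3, 5 and 8. The whole left tibia, freed of skin, muscle, ligament and tendon, gave 1 library of ribosomal-RNA-depleted total RNA per rat, so bone, growth cartilage and marrow were read together and osteocytes were not isolated. Muscle had been removed by the study's protocol, yet the 7 skeletal muscle markers summed to 4641 to 15815 CPM (reads per 1e+06 reads of the library), and the sarcomere protein gene Ttn alone reached 3125 to 11336 CPM. Ovary removal is a model of estrogen loss and includes no natural menopause. No group of trained rats with ovaries was analysed here, so the effect of training can be read only in rats without ovaries.

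Osteocytes sit in lacunae joined by fine cell processes and sense the load placed on bone. Through sclerostin they restrain Wnt signaling in the osteoblasts at the bone surface, and through the hormone FGF23 they make the kidney excrete phosphate. Near their lacunae, matrix proteins and the balance of pyrophosphate, which blocks crystal growth, and phosphate, which feeds it, set how far the matrix mineralizes. Bone responds to both estrogen loss and load, and sclerostin is a textbook example of a product that osteocytes release less of when bone is loaded.

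Levels are given as CPM when a gene is compared between rats, and as FPKM, which also divides by transcript length, when genes are compared with each other. A gene was called changed when edgeR's quasi-likelihood test gave a Benjamini-Hochberg adjusted p under 0.05 over all tested genes. The study's own looser thresholds, an unadjusted p under 0.05 with a fold above 1.2 or below 0.83, are counted beside it. The study applied them to DESeq2 results, whereas the main counts here apply them to the edgeR results of the tested genes. In NE/Ovx against Sham and in RE/Ovx against NE/Ovx fewer genes passed them here than the study reported. Library totals were 12297992 to 15123988 reads in the Sham group, 13568808 to 16671533 in the NE/Ovx group and 12967456 to 14946389 in the RE/Ovx group. The p-values measure the spread between these rats, of which each group had 3.

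The sequences just upstream of the start of 3 of the genes are shown because Sost and Mepe followed each other in level from rat to rat, and because Pdpn was the member with the smallest p in a comparison. They are 250 bases ending at the base before the annotated start, from RefSeq on build GRCr8, whereas the reads were placed by the authors on Rnor_6.0. All 3 genes lie on the minus strand, and the letters run 5′ to 3′ along the gene. Sost lay at chr10:87415767-87416016, Mepe at chr14:5736859-5737108 and Pdpn at chr5:160918960-160919209. Capitals mark a RUNX core (TGTGGT) and an AP-1 site (TGANTCA).
Sost: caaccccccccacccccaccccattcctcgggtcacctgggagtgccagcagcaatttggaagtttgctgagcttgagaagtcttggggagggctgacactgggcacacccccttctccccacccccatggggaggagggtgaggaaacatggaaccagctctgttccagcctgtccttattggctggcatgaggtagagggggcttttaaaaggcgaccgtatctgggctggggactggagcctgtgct
Mepe: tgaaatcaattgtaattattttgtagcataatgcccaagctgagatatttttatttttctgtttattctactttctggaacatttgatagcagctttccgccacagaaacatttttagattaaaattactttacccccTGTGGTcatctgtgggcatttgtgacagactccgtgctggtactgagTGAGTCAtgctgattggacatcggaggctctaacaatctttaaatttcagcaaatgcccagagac
Pdpn: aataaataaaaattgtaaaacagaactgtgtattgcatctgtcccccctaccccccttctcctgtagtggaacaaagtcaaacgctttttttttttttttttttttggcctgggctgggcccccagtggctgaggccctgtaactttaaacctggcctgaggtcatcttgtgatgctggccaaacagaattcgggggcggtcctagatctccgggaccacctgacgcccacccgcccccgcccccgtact

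The RefSeq table held 5 of the 8 members, with entries for Sost, Dmp1, Mepe, Pdpn and Ankh. The annotated start of Dmp1 may not be its transcription start, so its window is not described. Both strands of the other 4 windows were searched for the RUNX core, bound by the osteoblast factor RUNX2, for the AP-1 site, bound by Fos and Jun proteins, for the palindromic estrogen response element and for a TATA box (TATAAA). Of these 4 only the Mepe window held a match, with TGTGGT found from -112 to -107 relative to the start and TGAGTCA found from -65 to -59. Of 33469 rat windows of the same length, 14.5% held a RUNX core, 6.34% an AP-1 site, 0.0239% the estrogen response element and 12.9% the TATA box. The Sost window was rich in G and C, at 60.4% of bases, against 51.6% for Pdpn and 38% for Mepe, while that of Ankh reached 79.2%. Mepe and Dmp1 both lie on chromosome 14 and encode secreted phosphoproteins of the SIBLING family.

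Averaged over the 9 tibias, the genes of pyrophosphate handling were the most abundant per length and the hormone FGF23 the least. Mean FPKM over the 9 rats was 43.9 for Ankh, which encodes a membrane protein needed for the export of pyrophosphate precursors (range 38.4 to 51.2). It was 30.1 for Enpp1, the ectoenzyme that makes pyrophosphate from ATP (26.0 to 34.2), and 27.5 for Dmp1, a matrix phosphoprotein of osteocytes (15.1 to 40.4). Sost followed at 14.7 FPKM (5.94 to 26.4), Phex, a membrane endopeptidase whose loss raises FGF23, at 11.1 (5.58 to 14.6), and Mepe, a matrix phosphoglycoprotein that yields a mineral-binding peptide, at 10.7 (6.43 to 13.1). Pdpn, the membrane mucin podoplanin of young osteocytes with growing processes, stood at 3.82 FPKM (2.76 to 5.33) and Fgf23 at 0.771 (0.195 to 2.15). The ranges of Ankh and Enpp1, of Mepe and Pdpn, and of Pdpn and Fgf23 did not overlap, and these orders held in 9 of 9 rats. The other neighbours overlapped: Enpp1 was above Dmp1 in 7 of 9 rats, Dmp1 above Sost in 8, Sost above Phex in 6 and Phex above Mepe in 6. Reads not divided by length gave another order over the 9 rats, with 19478 for Dmp1, 15294 for Enpp1 and 13707 for Ankh. Phex had 6032 reads, Mepe 5073 and Sost 1270. Every label gene of the osteocyte was thus detected in every library, including Fgf23 with 2 to 20 reads. Several of these genes are not confined to osteocytes, since Ankh and Enpp1 are also active in cartilage and other tissues and Pdpn in lymphatic endothelium.

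**Figure D1:**
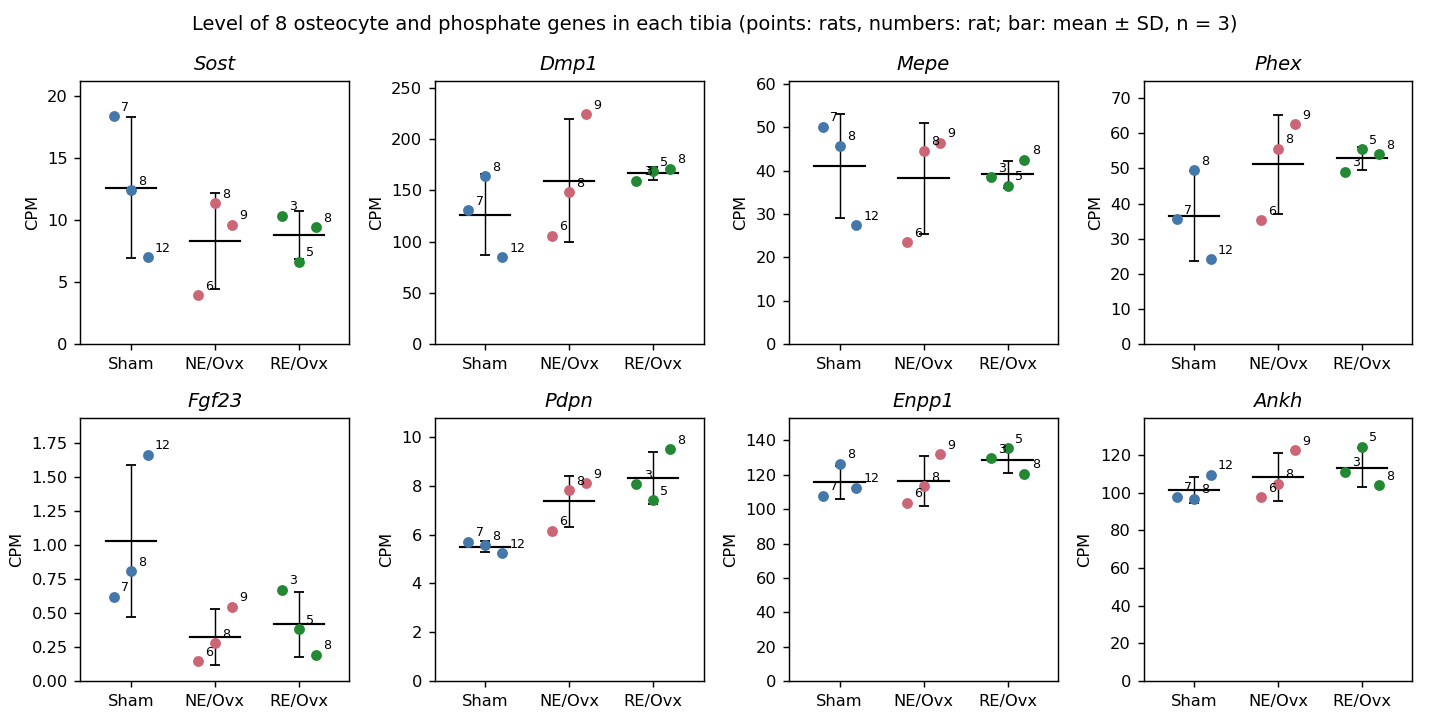
Level of each of the 8 genes in CPM (y axis, starting at 0) in the 3 groups (x axis), with 1 point per rat labelled by its rat number and bars for mean ± SD of 3 rats. Only for Pdpn among the tested genes do all 3 Sham points lie below all points of another group, NE/Ovx rat 6 is the lowest of its group in each tested gene, and the RE/Ovx points of Dmp1, Phex and Mepe lie close together.

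Spread between rats differed strongly by gene. From the lowest to the highest of the 9 rats the CPM of Ankh differed 1.28-fold and that of Enpp1 1.31-fold, against 1.81-fold for Pdpn, 2.13-fold for Mepe, 2.59-fold for Phex, 2.64-fold for Dmp1, 4.63-fold for Sost and 11.3-fold for Fgf23. Sost, Dmp1, Mepe and Phex, the genes most particular to osteocytes, scattered more than the widely used Ankh and Enpp1, and much of the scatter lay inside groups. NE/Ovx rat 6 had the lowest level of its group in 7 of the 7 tested genes, and Sham rat 12 in 5 of 7. These libraries stood apart in other lists too. The 9 interferon response genes summed to 2400 CPM in NE/Ovx rat 6 against 748 to 1619 CPM in the other rats, and the 6 B-cell markers were highest there, at 512 CPM, and lowest in Sham rat 12, at 74.1 CPM. Sham rat 12 also had the lowest mean log2 level of the osteoclast markers, -0.50 relative to the mean over the rats. On the same scale Sham rat 12 and NE/Ovx rat 6 were the lowest of their groups in the osteoblast markers, at -0.79 and -0.19. They were also the lowest of their groups in the chondrocyte markers, at -1.06 and -0.019. The part of these differences in the members' values was not tested. NE/Ovx rat 9 was the highest of its group in 6 of 7. In the RE/Ovx group no rat led or trailed in more than 3 of the 7. Within that group the coefficient of variation was 3.71% for Dmp1, 6.36% for Phex and 7.9% for Mepe, whereas the same genes varied by 37.6%, 27.7% and 33.3% in the NE/Ovx group and by 31.4%, 34.9% and 29.2% in the Sham group. In the same order of groups Sost varied by 21.9%, 46.5% and 45.1% and Enpp1 by 5.9%, 12.3% and 8.37%. Pdpn, at 12.9%, 14.3% and 4.25%, and Ankh, at 9.13%, 11.8% and 7.01%, varied more in RE/Ovx than in Sham. Genes outside the members went both ways. The B-cell marker Blnk varied by 3.14%, 29.3% and 45.7% and the osteoblast marker Runx2 by 21.8%, 12.8% and 3.65%. With 3 rats a group the narrower spread of Dmp1, Phex and Mepe was not tested. It was also not compared with that of all tested genes. Fewer osteocytes in a tibia and less RNA per osteocyte cannot be told apart in libraries of whole bone.

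No tested member passed the adjusted threshold in any of the 3 comparisons. For the effect of ovary removal, NE/Ovx against Sham, edgeR called 0 of the 7, with 1 at an unadjusted p under 0.05, and DESeq2 and limma on FPKM also called 0. The background over all tested genes was 1.23% called, 1.03% as higher and 0.2% as lower in NE/Ovx. For the effect of training, RE/Ovx against NE/Ovx, edgeR called 0 of 7, with 0 at an unadjusted p under 0.05, DESeq2 and limma also called 0, and the background was 0% called. For trained rats without ovaries, RE/Ovx against Sham, edgeR called 0 of 7, with 1 at an unadjusted p under 0.05, against a background of 8.06%, with 5% higher and 3.06% lower. DESeq2 also called 0 of 7 there, and limma called 1, Pdpn, when genes under 1 FPKM were left out. Under the study's thresholds the counts were 1, 0 and 1 of 7 against backgrounds of 17.9%, 4.68% and 23.2%, so the share among the members was near or below that of all genes. Pdpn was the gene both times. The median log2 fold change of the 7 was 0.10, 0.06 and 0.16 in that order, against 0.003, 0.008 and -0.008 for all tested genes. All 7 estimates of RE/Ovx against NE/Ovx were above 0, but without NE/Ovx rat 6 those of Sost, Dmp1, Mepe and Phex were -0.25, -0.16, -0.22 and -0.16. Between the same groups the 7 skeletal muscle markers summed to 12370 to 15815 CPM in NE/Ovx and, without overlap, to 5947 to 8855 CPM in RE/Ovx, and 0 of 7 passed by edgeR with 6 at an unadjusted p under 0.05. Across the 9 rats 6 of the 7 members correlated negatively with the mean level of this list, and Ankh gave r = 0.094. Within groups r was -0.68 for Phex, -0.56 for Dmp1 and 0.43 for Ankh. With the mean level of the chondrocyte markers r within groups was larger, at 0.942 for Phex and 0.839 for Dmp1, and it was 0.013 for Ankh. With the osteoblast markers it was 0.787, 0.633 and 0.255 for the same genes. The part of muscle, cartilage or osteoblasts in the members' values was not tested. Comparisons with a shared group use the same rats, so their values are not independent.

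**Figure D2:**
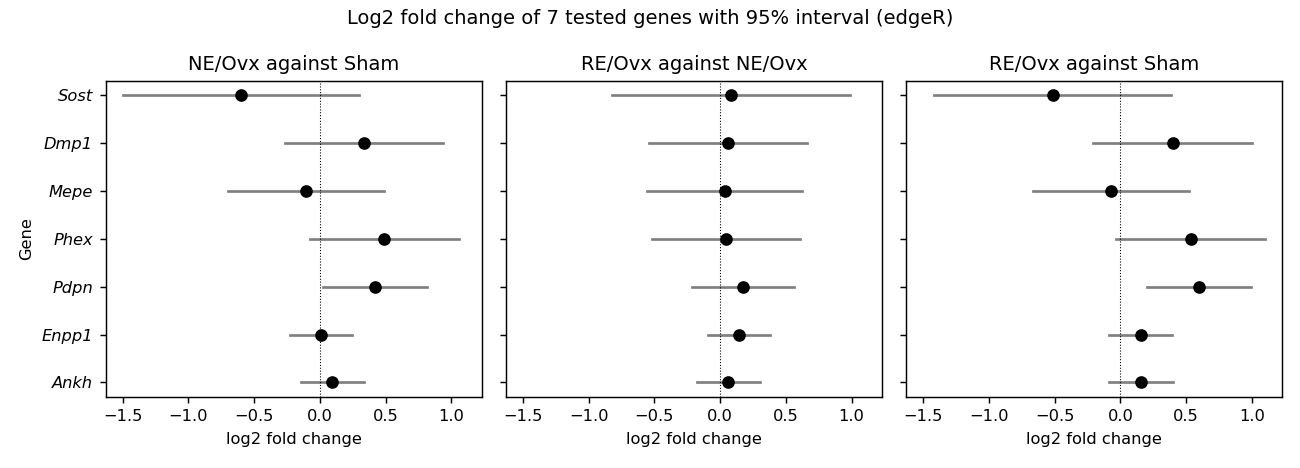
Log2 fold change (x axis) of the 7 tested genes (y axis) in the 3 comparisons, with points for the edgeR estimate and lines for its 95% interval. Only the Pdpn lines of the 2 comparisons with Sham stay above 0, the Sost lines are the widest, and all 7 lines of RE/Ovx against NE/Ovx include 0.

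Sost encodes sclerostin, the secreted antagonist of the Wnt co-receptors LRP5 and LRP6. Its level was 7.0 CPM in Sham rat 12, 18.4 in rat 7 and 12.4 in rat 8. It was 3.97, 11.3 and 9.64 CPM in NE/Ovx rats 6, 8 and 9, and 10.4, 6.65 and 9.44 in RE/Ovx rats 3, 5 and 8. The 2 highest values belonged to Sham rats, but Sham rat 12 lay below 4 of the 6 rats without ovaries and the groups overlapped. NE/Ovx against Sham gave a log2 fold change of -0.60 (SE 0.40, 95% interval -1.50 to 0.30, edgeR adjusted p = 0.435). RE/Ovx against Sham gave -0.52 (SE 0.40, interval -1.41 to 0.38, edgeR adjusted p = 0.468). RE/Ovx against NE/Ovx gave 0.08 with an interval from -0.82 to 0.99 (SE 0.41, edgeR adjusted p = 0.993), an interval that holds both a fall and a rise after training. This gene rested on 54 to 267 reads a library.

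Dmp1, needed for osteocyte maturation and for holding FGF23 down, stood at 84.7, 131 and 164 CPM in Sham rats 12, 7 and 8. The NE/Ovx rats 6, 8 and 9 had 106, 148 and 224 CPM and the RE/Ovx rats 3, 5 and 8 had 160, 169 and 171 CPM. The RE/Ovx values were close to each other and overlapped with the upper end of the Sham values, and the NE/Ovx group held the highest value of all. The log2 fold change was 0.34 for NE/Ovx against Sham (SE 0.27, edgeR adjusted p = 0.517), 0.06 for RE/Ovx against NE/Ovx (SE 0.27, edgeR adjusted p = 0.992) and 0.40 for RE/Ovx against Sham (SE 0.27, edgeR adjusted p = 0.395).

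Mepe stood at 27.5, 50.1 and 45.8 CPM in the Sham rats 12, 7 and 8, at 23.6, 44.6 and 46.5 CPM in the NE/Ovx rats 6, 8 and 9 and at 38.5, 36.5 and 42.6 CPM in the RE/Ovx rats 3, 5 and 8. Each of the Sham and NE/Ovx groups held 1 low rat and 2 higher ones, and all 3 groups overlapped. The log2 fold change was -0.11 (SE 0.27, edgeR adjusted p = 0.855), 0.03 (SE 0.26, edgeR adjusted p = 0.994) and -0.07 (SE 0.27, edgeR adjusted p = 0.905) for NE/Ovx against Sham, RE/Ovx against NE/Ovx and RE/Ovx against Sham. The intervals reached from -0.70 to 0.49, from -0.56 to 0.63 and from -0.66 to 0.52.

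Phex had 24.2, 35.5 and 49.6 CPM in the Sham rats 12, 7 and 8. It had 35.2, 55.6 and 62.5 CPM in the NE/Ovx rats 6, 8 and 9, and 49.1, 55.5 and 54.0 CPM in the RE/Ovx rats 3, 5 and 8. Sham rat 8 reached into the range of both groups without ovaries, while the other Sham rats lay below at least 5 of those 6 rats. The log2 fold change was 0.49 for NE/Ovx against Sham (SE 0.25, interval -0.08 to 1.06, edgeR adjusted p = 0.308) and 0.54 for RE/Ovx against Sham (SE 0.25, interval -0.03 to 1.10, edgeR adjusted p = 0.220). Training against no training gave 0.05 (SE 0.25, edgeR adjusted p = 0.993).

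Fgf23, the phosphate-lowering hormone, was listed with 20, 9 and 10 reads in Sham rats 12, 7 and 8, with 2, 4 and 9 in NE/Ovx rats 6, 8 and 9 and with 10, 5 and 3 in RE/Ovx rats 3, 5 and 8. These are 1.67, 0.619 and 0.806 CPM, then 0.147, 0.277 and 0.545 CPM, then 0.673, 0.382 and 0.193 CPM. In CPM all Sham values lay above all NE/Ovx values, whereas Sham rat 7 lay below RE/Ovx rat 3. In reads Sham rat 7 and NE/Ovx rat 9 tied at 9, so only the scaling of the libraries set them apart. The group sums were 39 reads in Sham (exact Poisson 95% interval 27.7 to 53.3), 15 in NE/Ovx (8.40 to 24.7) and 18 in RE/Ovx (10.7 to 28.4), and these intervals cover counting error only. The gene was removed by the filter on low counts. Fitted without that filter, it gave a log2 fold change of -1.61 for NE/Ovx against Sham (SE 0.67, edgeR adjusted p = 0.250), 0.32 for RE/Ovx against NE/Ovx (edgeR adjusted p = 0.992) and -1.28 for RE/Ovx against Sham (SE 0.66, edgeR adjusted p = 0.301). The exact permutation test of NE/Ovx against Sham gave p = 0.1, two-sided, which is the smallest that 3 rats against 3 allow. Any gene without overlap between the groups has this p, and 25.3% of all tested genes had no overlap in this comparison. Without Sham rat 12 and NE/Ovx rat 6 the log2 fold change of NE/Ovx against Sham was -0.77. Dmp1 and Phex, both of which hold FGF23 down, gave 0.34 and 0.49 in the same comparison, with edgeR adjusted p of 0.517 and 0.308. No value of the 3 genes passed the adjusted threshold, and a link between them was not tested.

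Pdpn had 5.25, 5.71 and 5.56 CPM in the Sham rats 12, 7 and 8, 6.17, 7.82 and 8.12 CPM in the NE/Ovx rats 6, 8 and 9 and 8.07, 7.41 and 9.51 CPM in the RE/Ovx rats 3, 5 and 8. All 6 rats without ovaries lay above all 3 Sham rats, and the NE/Ovx and RE/Ovx groups overlapped. Groups did not overlap for 25.3% of all tested genes in NE/Ovx against Sham. The share was 11.6% in RE/Ovx against NE/Ovx and 27.8% in RE/Ovx against Sham. Among the 7 tested members, Fgf23 not counted, the numbers were 1, 0 and 1. RE/Ovx against Sham gave a log2 fold change of 0.60 (SE 0.18, interval 0.20 to 0.99, edgeR adjusted p = 0.0667). NE/Ovx against Sham gave 0.42 (SE 0.18, interval 0.02 to 0.82, edgeR adjusted p = 0.218), and RE/Ovx against NE/Ovx gave 0.18 (SE 0.17, interval -0.21 to 0.56, edgeR adjusted p = 0.977). The gene rested on 63 to 148 reads a library.

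Podoplanin is also made by lymphatic endothelium, so its markers were read beside it. None of the 4 markers Prox1, Lyve1, Flt4 and Ccl21 passed the adjusted threshold in a comparison, and none was at 0 in a library. Their summed level, most of it Flt4, ranged from 49.7 to 51.4 CPM in Sham, from 49.6 to 62.8 in NE/Ovx and from 50.4 to 65.8 in RE/Ovx. Their mean log2 level, which weights each gene alike, went the other way between the groups without ovaries, with -0.61 to 0.42 in Sham, 0.30 to 0.45 in NE/Ovx and -0.70 to 0.03 in RE/Ovx. Prox1 stood at 2.08 to 3.30 CPM in NE/Ovx and 0.471 to 1.68 CPM in RE/Ovx, and Ccl21 at 2.13 to 4.15 CPM and 0.578 to 1.60 CPM, without overlap and with an edgeR adjusted p of 0.921 each. Markers of osteoblasts moved more: 3 of 9 rose in each comparison with Sham and 0 of 9 passed in RE/Ovx against NE/Ovx. Their summed level was 7585 to 10615 CPM in Sham, 18074 to 29534 in NE/Ovx and 19943 to 32267 in RE/Ovx. Most of this sum was Col1a1, at 5239 to 7466, 14462 to 23781 and 15607 to 25414 CPM. In each comparison with Sham 8 of the 9 estimates were above 0 and 1, that of Ibsp, was below. Ibsp averaged 625, 555 and 549 CPM in Sham, NE/Ovx and RE/Ovx. Markers of chondrocytes rose in 2 of 7 cases in NE/Ovx and in 4 of 7 in RE/Ovx against Sham, with summed levels of 694 to 1348, 1561 to 2404 and 2015 to 2213 CPM. Markers of adipocytes rose in 3 of 7 cases in NE/Ovx and in 7 of 7 in RE/Ovx against Sham, with sums of 85.3 to 192 CPM in Sham, 316 to 428 in NE/Ovx and 405 to 608 in RE/Ovx. No marker of these 3 lists was at 0. Of all tested genes 1.03% were called higher in NE/Ovx against Sham and 5% in RE/Ovx against Sham. Across the 9 rats Pdpn correlated with the mean level of the chondrocyte list at r = 0.905, of the adipocyte list at 0.896, of the osteoblast list at 0.879 and of the lymphatic list at -0.085, and within groups at 0.643, 0.462, 0.473 and 0.016. The part of these cells in the level of Pdpn was not tested.

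Enpp1 had 112, 108 and 126 CPM in the Sham rats 12, 7 and 8, 104, 113 and 132 CPM in the NE/Ovx rats 6, 8 and 9 and 130, 136 and 121 CPM in the RE/Ovx rats 3, 5 and 8. Ankh had 110, 97.9 and 96.8 CPM in Sham, 97.7, 105 and 123 CPM in NE/Ovx and 111, 124 and 104 CPM in RE/Ovx, in the same order of rats. Both genes overlapped between all groups. Their intervals were the narrowest of the 7. For Enpp1 the log2 fold change was 0.01 in NE/Ovx against Sham (interval -0.23 to 0.25, edgeR adjusted p = 0.971), 0.14 in RE/Ovx against NE/Ovx (interval -0.09 to 0.38, edgeR adjusted p = 0.968) and 0.15 in RE/Ovx against Sham (interval -0.08 to 0.39, edgeR adjusted p = 0.404). For Ankh it was 0.10 (interval -0.15 to 0.34, edgeR adjusted p = 0.657), 0.06 (interval -0.18 to 0.30, edgeR adjusted p = 0.987) and 0.16 (interval -0.08 to 0.40, edgeR adjusted p = 0.401). Changes larger than 0.40 on the log2 scale lay outside each of these 6 intervals.

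Some members followed each other from rat to rat. Across the 9 rats, whose points share 1 library and its scaling per rat, log2 CPM of Dmp1 and Phex correlated with Pearson's r = 0.945 and Spearman's rho = 0.817, and of the 13093 genes compared Phex was the most like Dmp1. Sost and Mepe correlated with r = 0.895 and rho = 0.850. Within groups, after subtracting each group's mean, r was 0.947 for Dmp1 and Phex and 0.945 for Sost and Mepe. Leaving out the 2 rats farthest from the median of the first gene of the pair gave 0.809 and 0.767. For Dmp1 and Mepe r was 0.718 and turned to -0.154 without those rats, and for Mepe and Phex it was 0.613 and turned to -0.405, so these relations rested on 2 rats each. Enpp1 and Ankh gave r = 0.715. Sost and Ankh gave -0.201. These values describe 9 rats and carry no test.

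**Figure D3:**
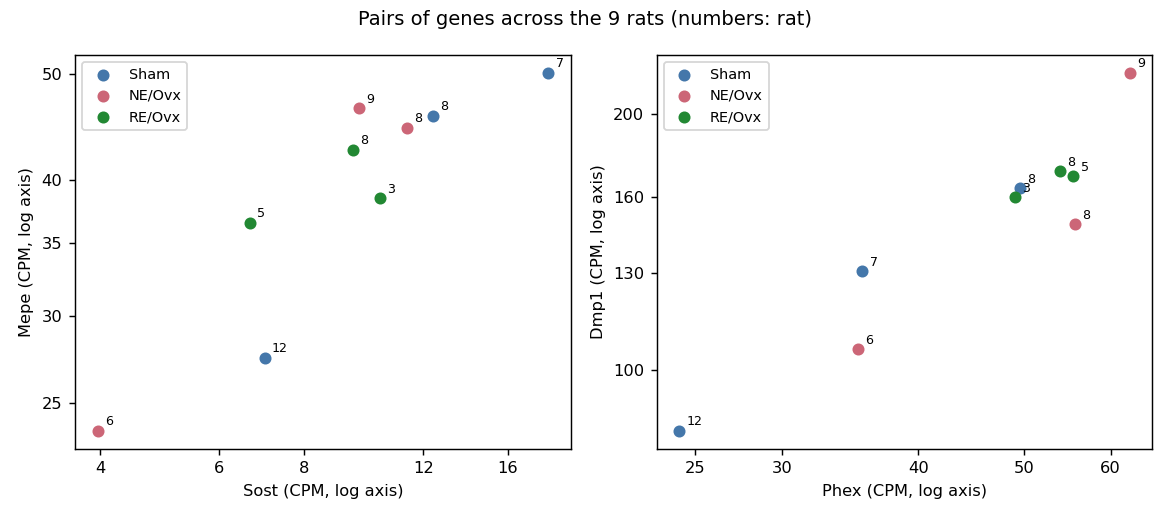
CPM of Mepe against Sost (left) and of Dmp1 against Phex (right), both axes logarithmic, with 1 point per rat colored by group and labelled by rat number. NE/Ovx rat 6 and Sham rat 12 lie at the low end of both panels, and at a given Sost level the Sham points lie lower in Mepe than most points of the other groups.

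The tested genes with levels most like those of a member were mostly not osteocyte genes. Sost was followed closest by Sft2d1 (r = 0.975), Alg6 (0.918) and RGD1304810 (0.912), and Mepe by Sft2d1 (0.927), Kctd12 (0.912) and RGD1304810 (0.906). Dmp1 was followed by Phex (0.945), Egr3 (0.930), an early growth response factor, and Gpr180 (0.924). Phex was followed by Fam78b (0.970), Pth1r (0.967), which is the parathyroid hormone receptor of osteoblasts and osteocytes, and Dimt1 (0.966). Pdpn was followed by Itgb8 (0.984), an integrin subunit, Btn1a1 (0.965) and Fgfrl1 (0.963), an FGF receptor-like protein. For Enpp1 they were Pgrmc2 (0.932), Zfp275 (0.908) and Zc3h14 (0.899), and for Ankh R3hcc1 (0.948), F7 (0.910) and Ppara (0.906). These genes are the highest of 13093 candidates over only 9 rats, and the values carry no test.

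Because 2 rats were low in many members at once, ratios of members within a rat were also formed, a choice made after the values were seen. The ratio of Mepe to Phex was 0.924 to 1.41 in Sham, 0.669 to 0.802 in NE/Ovx and 0.658 to 0.789 in RE/Ovx, so that all rats without ovaries lay below all Sham rats. The ratio of Sost to Phex was 0.250 to 0.516 in Sham, 0.113 to 0.204 in NE/Ovx and 0.120 to 0.211 in RE/Ovx, again with no overlap against Sham. The ratio of Pdpn to Enpp1 was 0.0440 to 0.0529 in Sham, below the 0.0595 to 0.0689 of NE/Ovx and the 0.0547 to 0.0789 of RE/Ovx. On the log2 scale these ratios differed from Sham by -0.63, -1.12 and 0.40 in NE/Ovx and by -0.62, -1.02 and 0.42 in RE/Ovx, each with an exact permutation p of 0.1, two-sided, the smallest possible.

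Of the 21 ratios between tested members, 5 did not overlap in NE/Ovx against Sham, 1 in RE/Ovx against NE/Ovx and 9 in RE/Ovx against Sham. Among all ratios of a member to any other tested gene the background was 14.6%, 5.15% and 30.2%. The ratio without overlap between RE/Ovx and NE/Ovx was Enpp1 to Ankh, at 1.06 to 1.08 in NE/Ovx and 1.09 to 1.17 in RE/Ovx. Its exact permutation p was 0.1, two-sided, as for every ratio without overlap. The 5 were Sost to Mepe, Sost to Phex and Mepe to Phex, all lower in NE/Ovx, and Pdpn to Enpp1 and Pdpn to Ankh, both higher. In RE/Ovx the lower ones were Sost to Dmp1, Sost to Phex, Sost to Pdpn, Dmp1 to Phex, Mepe to Phex and Mepe to Pdpn, and the higher ones Dmp1 to Mepe, Pdpn to Enpp1 and Pdpn to Ankh. The 21 ratios are built from 7 genes and are not independent of each other. A ratio within a rat shows that its genes moved unequally and does not show which of them moved.

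**Figure D4:**
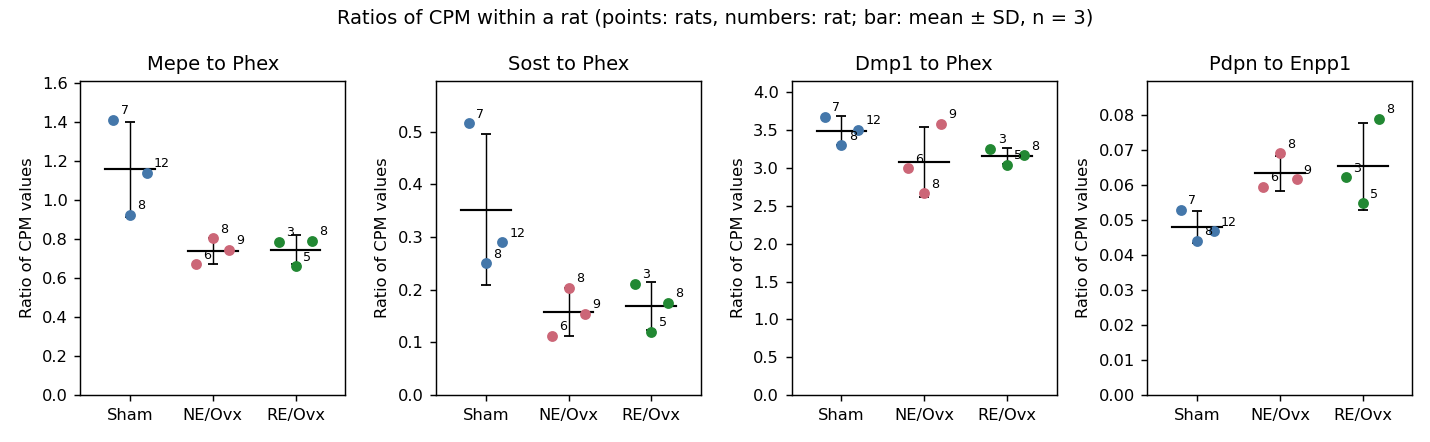
Ratio of CPM values within a rat (y axis, starting at 0) for 4 pairs of genes in the 3 groups (x axis), with 1 point per rat labelled by its number and bars for mean ± SD of 3 rats. Mepe to Phex and Sost to Phex are lower, and Pdpn to Enpp1 higher, in all 6 rats without ovaries than in the Sham rats, while Dmp1 to Phex overlaps between NE/Ovx and Sham.

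The members were also set beside the osteoblast markers, since osteocytes descend from these cells. The mean log2 level of the 9 osteoblast markers, relative to their mean over the rats, was -0.79, -0.72 and -0.36 in Sham rats 12, 7 and 8, -0.19, 0.48 and 0.29 in NE/Ovx rats 6, 8 and 9 and 0.12, 0.66 and 0.50 in RE/Ovx rats 3, 5 and 8. The groups without ovaries lay above Sham. Taken relative to this level, 5 of the 7 members (Sost, Mepe, Pdpn, Enpp1 and Ankh) were lower without overlap in NE/Ovx than in Sham, and 4 (Sost, Mepe, Enpp1 and Ankh) in RE/Ovx. The same was true of 61.7% and 79.8% of all tested genes, so these counts say nothing particular about the members. Dmp1 and Phex were the members that overlapped in both comparisons.

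Other osteocyte genes, a list of 9 of which 8 were tested, changed in both directions in trained rats against Sham. There 2 of the 8 were called higher and 1 lower, against 5% and 3.06% of all tested genes. Gja1, the gap junction protein connexin 43 that joins osteocyte processes, rose by 1.08 on the log2 scale (SE 0.20, edgeR adjusted p = 0.0157), from 122, 151 and 163 CPM in Sham rats 12, 7 and 8 to 215, 356 and 350 CPM in RE/Ovx rats 3, 5 and 8. Mmp14, a membrane collagenase used in forming osteocyte processes, rose by 0.84 (edgeR adjusted p = 0.0453). Its level was 79.1, 91.6 and 86.1 CPM in the same Sham rats and 93.9, 196 and 171 CPM in the same RE/Ovx rats. RE/Ovx rat 3 thus lay close to Sham. The 5 markers of tendon and periosteum summed to 427, 278 and 151 CPM and to 393, 1388 and 797 CPM in these rats. Their part in the Mmp14 value was not tested. Dstn, the actin-severing protein destrin, fell by 0.55 (SE 0.11, edgeR adjusted p = 0.0210). Of the 5 tested neutrophil markers 3 were also called lower there. These markers summed to 5422 to 9867 CPM in Sham and 3076 to 4675 CPM in RE/Ovx. The part of neutrophils in the Dstn value was not tested. In NE/Ovx against Sham 0 of 8 passed by edgeR, with 5 at an unadjusted p under 0.05, and the smallest p belonged to Dstn (-0.48, edgeR adjusted p = 0.0687) and Gja1 (0.83, edgeR adjusted p = 0.0700). Between RE/Ovx and NE/Ovx 0 of 8 passed, with 0 at an unadjusted p under 0.05, and Hyou1 (-0.22, edgeR adjusted p = 0.924) and Gja1 (0.25, edgeR adjusted p = 0.968) came first. Most of these genes are also active outside osteocytes. Median log2 fold changes were 0.36, 0.08 and 0.45 in NE/Ovx against Sham, RE/Ovx against NE/Ovx and RE/Ovx against Sham.

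Of 14 genes of FGF23 action and phosphate handling, 11 were tested. Fgfr1, a receptor of FGF23, rose in RE/Ovx against Sham by 0.73 (SE 0.13, edgeR adjusted p = 0.0164), from 144, 121 and 132 CPM in Sham rats 12, 7 and 8 to 179, 247 and 231 CPM in RE/Ovx rats 3, 5 and 8. Galnt3, whose product glycosylates FGF23 and shields it from cleavage, fell by 0.63 (SE 0.12, edgeR adjusted p = 0.0185), from 30.7, 24.8 and 30.5 CPM to 18.3, 19.8 and 17.4 CPM. In both genes the groups did not overlap. Of all tested genes 8.06% were called in RE/Ovx against Sham, and the groups did not overlap for 27.8%. The same genes led in NE/Ovx against Sham, where 0 of 11 passed by edgeR with 3 at an unadjusted p under 0.05 (Fgfr1 0.51, edgeR adjusted p = 0.0852, and Galnt3 -0.43, edgeR adjusted p = 0.0987). They led again in RE/Ovx against NE/Ovx, where 0 of 11 passed with 0 at an unadjusted p under 0.05. The median log2 fold change of the list was 0.03, 0.05 and 0.009, close to that of all tested genes.

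Kl, the FGF23 co-receptor klotho, Slc34a1, the main phosphate transporter of the kidney tubule, and Cyp24a1, which degrades vitamin D, are genes of kidney above all. They had 0 to 5, 0 to 3 and 0 to 4 reads a library and were not tested. Cyp27b1, which activates vitamin D, averaged 1.35 CPM in Sham, 1.71 in NE/Ovx and 1.16 in RE/Ovx and passed in no comparison.

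Of 9 genes of pyrophosphate and matrix mineral, 8 were tested, and only Mgp, the matrix Gla protein that inhibits calcification, passed, with a rise of 0.92 in RE/Ovx against Sham (SE 0.24, edgeR adjusted p = 0.0430). Its level was 75.7, 88.7 and 50.5 CPM in Sham rats 12, 7 and 8 and 101, 129 and 176 CPM in RE/Ovx rats 3, 5 and 8. Of all tested genes 8.06% were called in RE/Ovx against Sham. In NE/Ovx against Sham 0 of 8 passed by edgeR, with 3 at an unadjusted p under 0.05. There Smpd3, the neutral sphingomyelinase needed for mineralization, gave 1.24 (edgeR adjusted p = 0.0902) and Alpl, the phosphatase that cleaves pyrophosphate, gave 0.43 (edgeR adjusted p = 0.159). In RE/Ovx against NE/Ovx 0 of 8 passed with 1 at an unadjusted p under 0.05, and the leading genes were Abcc6, a transporter that supports ATP release (-1.45, edgeR adjusted p = 0.921), and Mgp (0.50, edgeR adjusted p = 0.932). Abcc6 stood at 0.229 to 1.05 CPM over the 9 rats.

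The partners of sclerostin and the Wnt pathway were the only one of these lists with a gene past the adjusted threshold in both comparisons with Sham. Lrp5, the co-receptor that sclerostin binds, rose by 0.69 in NE/Ovx against Sham (SE 0.12, edgeR adjusted p = 0.0331) and by 0.72 in RE/Ovx against Sham (edgeR adjusted p = 0.0142). Its level was 45.3, 47.0 and 49.4 CPM in Sham rats 12, 7 and 8, 64.2, 80.7 and 82.8 CPM in NE/Ovx rats 6, 8 and 9 and 67.5, 79.6 and 85.6 CPM in RE/Ovx rats 3, 5 and 8, with no overlap against Sham. Nkd2, an intracellular Wnt antagonist, rose by 0.68 (SE 0.11, edgeR adjusted p = 0.0253) and 0.72 (edgeR adjusted p = 0.0113). Lef1, a transcription factor of the Wnt pathway, rose by 1.39 in RE/Ovx against Sham (SE 0.32, edgeR adjusted p = 0.0306), from 7.83, 12.2 and 23.5 CPM in Sham rats 12, 7 and 8 to 36.5, 33.8 and 44.3 CPM in RE/Ovx rats 3, 5 and 8. The 6 B-cell markers summed to 74.1, 186 and 258 CPM in the same Sham rats and to 399, 419 and 468 CPM in the same RE/Ovx rats, and both Lef1, at 45.1 CPM, and these markers were highest in NE/Ovx rat 6. The part of B cells in the Lef1 value was not tested. The counts were 2 of 9 tested in NE/Ovx and 3 of 9 in RE/Ovx against Sham, all higher. Of all tested genes 1.03% and 5% were called higher in these comparisons. In RE/Ovx against NE/Ovx 0 of 9 passed by edgeR with 0 at an unadjusted p under 0.05, and Axin2 gave -0.21 (edgeR adjusted p = 0.975) and Ctnnb1 0.10 (edgeR adjusted p = 0.977). Lrp4, which anchors sclerostin at the osteocyte surface, averaged 373, 428 and 432 CPM in Sham, NE/Ovx and RE/Ovx and passed in no comparison. Dkk1, another secreted Wnt antagonist, had 0 to 18 reads a library and was not tested.

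Of the 5 genes for partners of podoplanin, 0 passed by edgeR in each comparison, with 1, 0 and 2 at an unadjusted p under 0.05. Clec1b, the platelet receptor of podoplanin, gave -0.87 in NE/Ovx against Sham (edgeR adjusted p = 0.0743) and -0.77 in RE/Ovx against Sham (edgeR adjusted p = 0.0519). Cd44, a surface partner of podoplanin, gave -0.19 (edgeR adjusted p = 0.331) and -0.31 (edgeR adjusted p = 0.0952). In RE/Ovx against NE/Ovx the leading genes were Ezr (0.13, edgeR adjusted p = 0.975), which links podoplanin to actin, and Cd44 (-0.12, edgeR adjusted p = 0.975). Clec1b is a gene of megakaryocytes, whose 5 markers summed to 570 to 932 CPM in Sham, 470 to 589 in NE/Ovx and 504 to 622 in RE/Ovx. Of these markers 1 of 5 was called lower in RE/Ovx against Sham, against 3.06% of all tested genes, and 0 in the other comparisons. Their part in the Clec1b value was not tested.

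**Figure D5:**
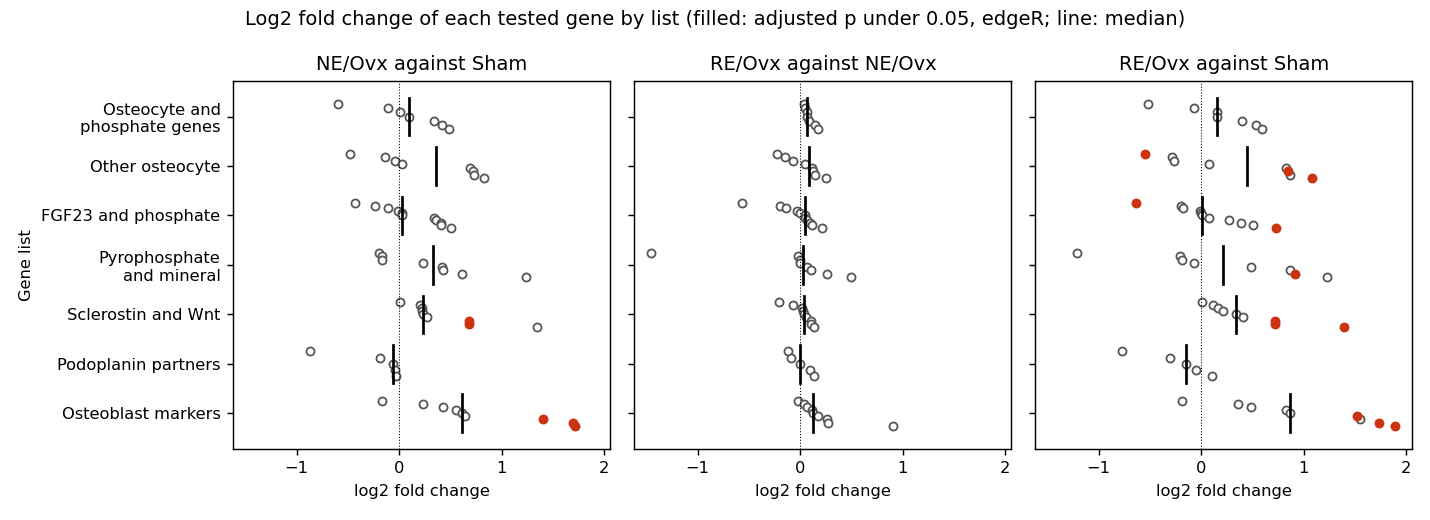
Log2 fold change (x axis) of each tested gene in 7 lists (y axis) for the 3 comparisons, with 1 point per gene, filled where the edgeR adjusted p was under 0.05, and a vertical bar at the median of each list. The 7 tested osteocyte and phosphate genes in the top row have no filled point, and the middle panel, RE/Ovx against NE/Ovx, has none in any list.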

How the data were processed

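RNA of the left tibia of 9 rats was sequenced, 3 rats per group. Per the labels, the authors deposited for each library the raw read counts per gene and FPKM (fragments scaled by transcript length and depth), made from reads placed on Rnor_6.0. The submitters' processing notes name Trimmomatic, Bowtie2, HISAT2, StringTie and DESeq. No source used here states if reads were counted by strand. The deposited counts of each library were summed as depth, from 12297992 to 16671533. Every library was assigned to its group by its title.

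The 8 genes, the lists and the tests were chosen with earlier results of these data known. Counts were filtered with filterByExpr, scaled by TMM and tested with edgeR 4.0.16 (quasi-likelihood) in R 4.3.3, with all 9 libraries in 1 fit and group as the only term. Benjamini-Hochberg adjustment ran over 14520 genes. A prior count of 2 was used for log2 CPM. Sums of 72 Fgf23 reads were given exact Poisson intervals. Alternatives were DESeq2 1.42.0, limma 3.58.1 on log2(FPKM + 1), other scaling and filters, and each rat left out. On simulated data for NE/Ovx against Sham with 14417 genes, edgeR recovered 67% of 2-fold and 92% of 4-fold changes. For RE/Ovx against NE/Ovx with 14410 genes it recovered 66% and 91%, and for RE/Ovx against Sham with 14404 genes 58% and 90%. Of the genes called, 4.79%, 7.65% and 4.52% had no planted change, in the same order of comparisons. The changes were planted in genes drawn at random, with 1 spread per gene shared by all groups. These shares therefore do not give the recovery for any single member.

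Named were all 8 members and, from each pathway list, the genes past the adjusted threshold in a comparison or else those with the smallest 2 p-values. Kl, Slc34a1, Cyp24a1 and Cyp27b1 were added for their role, and for each tested member the 3 genes with the highest r among those with average log2 CPM of at least 1. Lrp4 and Dkk1 were named outside this rule, for their role and after their values were seen. Upstream sequences came from RefSeq (GRCr8), matched by symbol.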

Additional observations from a re-analysis of the deposited data

How the results depend on the processing

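Members past the adjusted threshold stayed at 0 in all 3 comparisons under every alternative run, each rat left out included (range 0 to 0), except in RE/Ovx against Sham by limma on log2(FPKM + 1) with a minimum of 1 FPKM in 3 libraries, where the count was 1 (Pdpn, log2 fold change 0.51, limma adjusted p = 0.0422). Over all alternatives the adjusted p of Pdpn in that comparison ran from 0.0422 to 0.232.

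Members past the study's thresholds in NE/Ovx against Sham numbered 1 as reported, 2 with no filter on low counts and by limma with a pseudocount of 1 or 0.1, 0 by edgeR on the 2 groups alone, and 0 to 3 with a rat left out. In RE/Ovx against Sham they numbered 1 as reported, 2 with library totals, no filter, DESeq2 (both fits), edgeR on the 2 groups and limma with pseudocount 0.1 or a minimum FPKM, 3 by limma with pseudocount 1, and 1 to 2 with a rat left out. An alternative chosen after seeing the data, without Sham rat 12 and NE/Ovx rat 6, gave 2 and 3. The cause was not tested.

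Estimates near 0 changed sign, none past the threshold. In NE/Ovx against Sham, Enpp1 was -0.0020 with median-of-ratios factors, -0.0028 by DESeq2 on 9 libraries and -0.0018 by DESeq2 on 2 groups. With a rat left out, the log2 fold changes there ran from -0.11 to 0.085 for Enpp1, from -0.010 to 0.56 for Dmp1, from -0.34 to 0.14 for Mepe and from -0.019 to 0.16 for Ankh. In RE/Ovx against Sham, Mepe was 0.029 by limma with pseudocount 1, with or without the minimum FPKM, 0.035 with pseudocount 0.1, and from -0.30 to 0.091 with a rat left out. In RE/Ovx against NE/Ovx without both low rats, Sost, Dmp1, Mepe and Phex were -0.24, -0.15, -0.21 and -0.15. With a rat left out they ran there from -0.25 to 0.37, from -0.16 to 0.40, from -0.22 to 0.21 and from -0.16 to 0.23, Ankh from -0.0073 to 0.17 and Fgf23 from -0.23 to 0.95. The lowest values of Sost, Dmp1, Mepe, Phex and Ankh were those without NE/Ovx rat 6.

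The background moved more than the members. DESeq2 on 9 libraries called 656 genes higher and 334 lower in NE/Ovx against Sham (edgeR 149 and 29), 6 and 1 in RE/Ovx against NE/Ovx (edgeR 0 and 0) and 1151 and 780 in RE/Ovx against Sham (edgeR 726 and 445). DESeq2 on 2 groups called 625 and 260 in NE/Ovx against Sham and 26 and 125 in RE/Ovx against NE/Ovx. Limma with pseudocount 1 called 22 and 3 in NE/Ovx and 342 and 123 in RE/Ovx against Sham, and with 0.1 it called 42 and 11, and 436 and 156. With the minimum FPKM its lower calls were 19 and 252. Library totals gave 289 lower in RE/Ovx against Sham. EdgeR on 2 groups called 352 and 207 there and 1 higher in RE/Ovx against NE/Ovx. Without both low rats the counts were 28 and 5, and 358 and 199. With a rat left out they were 7 to 160 and 2 to 21 in NE/Ovx, and 67 to 1205 and 24 to 544 in RE/Ovx against Sham. No paired analysis was made, because the rats were divided among the groups at random and the study describes no pairs. A rat number that occurs in more than 1 group was not taken as a pair. Depth limits Fgf23 above all, with 72 reads in the 9 libraries.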
